A study of Mus musculus with 4 samples.

Results

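The genes described here encode the protein components of the cytosolic ribosome, the particle that translates mRNA outside mitochondria. They were chosen by symbol, as Rpl or Rps followed by a number or one of the naming variants of that series, leaving out symbols that contain -ps and the Rps6k kinases. The rule found 86 genes among 17816 named genes with at least 1 tag. The annotation lists 82 of them as protein coding. Of these, 77 are the usual subunit genes, 31 of the small and 46 of the large subunit, and 5 are paralogs, which are related copies at another locus (Rpl3l, Rpl7l1, Rpl22l1, Rpl39l and Rps27l). The other 4 are annotated as pseudogenes (Rpl32l, Rps3a3, Rps12l1 and Rps4l). Some ribosomal protein genes fall outside the rule, among them Fau, which encodes a ribosomal protein fused to a ubiquitin-like protein, and the copies Rpl36al and Rps27rt, annotated as protein coding, and Rpl37rt, annotated as a pseudogene.

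The material was lesional facial skin of C57BL/6 mice with the FADS form of dermatitis, at postnatal day 28, with the genotype Nectin-cre(+);Ikk2FL/FL;Postn-/-. All 4 libraries carried the Cre transgene, the floxed Ikk2 alleles (Ikk2 is a kinase of the NF-kappaB pathway) and the loss of Postn, the gene of the matrix protein periostin; in which cells the Cre acts is not stated in the labels. They form 1 group, so no genotype, treatment or healthy skin was compared and every difference given is between genes or between libraries. Whether the skins came from different animals is not stated in the labels, and a p-value here refers to the variation among these libraries only, part of which may be technical. The sample codes share a first part between libraries 1 and 2 and between 3 and 4, and a last letter between 1 and 3 and between 2 and 4, with no meaning given. Should libraries with a shared code come from 1 animal, n = 4 counts libraries and not animals, and the p-values and SDs are too small.

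The assay was CAGE, which sequences a short tag from the capped 5′ end of an RNA. Each tag marks a transcription start and counts 1 RNA, so levels do not depend on transcript length. They can be compared between genes as far as tags can be placed at a single locus. For many of the genes described here this is limited by copies elsewhere in the genome, as given below. Tags were deposited as CPM, the tags of an entry scaled to a common library total, for clusters of neighbouring starts; a gene's level is the sum of its clusters. Over all entries the libraries held 18179860, 18823630, 17630119 and 17939565 tags, with a cluster listed under several genes counted at each listing. Distinct clusters held 17026618, 17691558, 16492915 and 16787072 tags. The deposited CPM are scaled to the totals over all entries, and 1 tag was worth 0.0531 to 0.0567 CPM. The markers of skin cells were found in all libraries (8 of 8 keratinocyte genes, 9790 to 13719 CPM summed) and those of skeletal muscle, hair and glands differed between libraries: 10 muscle genes summed to 3388, 2487, 4154 and 6241 CPM in libraries 1 to 4, 6 hair shaft genes to 5403, 4992, 1610 and 1116 CPM, and 6 gland genes to 8.47, 37157, 0.227 and 6442 CPM.

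As background, each ribosome holds 1 copy of nearly every one of these proteins, 4 ribosomal RNAs, and a stalk that carries several copies of the acidic proteins P1 and P2. The mRNAs of ribosomal proteins typically begin with a C followed by an unbroken stretch of pyrimidines, the 5′ terminal oligopyrimidine or TOP motif. Through it the kinase mTOR and the RNA-binding protein LARP1 adjust how much of these mRNAs is translated, so the number of mRNAs alone does not give the rate of protein synthesis. The genes also have many processed pseudogenes, copies made by reverse transcription of the mRNA and inserted elsewhere in the genome.

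The sequence around the start bears on every 5′ tag counted here. First shown are 8 members with a long pyrimidine run, followed by 3 members without one in the window used. Each line gives the transcribed strand from 40 bases before to 25 bases after the RefSeq start on GRCm38.p6, so the transcript begins at the base that follows the first 40; capitals mark the longest unbroken run of C and T within 25 bases either side of that start. Rps6 lies at chr4:86857343-86857407 (minus strand), Rps10 at chr17:27635220-27635284 (minus), Rps18 at chr17:33955641-33955705 (minus), Rpl7a at chr2:26910767-26910831 (plus), Rpl15 at chr14:18270962-18271026 (minus), Rpl27a at chr7:109519155-109519219 (plus), Rpl35 at chr2:39005107-39005171 (minus) and Rpl38 at chr11:114668540-114668604 (plus). The 3 without a long run in this window are Rpl3l at chr17:24727786-24727850 (plus), Rps4x at chrX:102189367-102189431 (minus) and Rps19 at chr7:24884552-24884616 (plus). The window is placed on the RefSeq start and not on the tag cluster. Within 50 bases of the RefSeq start, 56 of 62 members had a run of at least 7 (90.3%, against 43.5% of tested genes). Lacking a run in this window therefore does not mean lacking one nearby.
Rps6: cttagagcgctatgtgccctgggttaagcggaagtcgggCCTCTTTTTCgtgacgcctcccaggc
Rps10: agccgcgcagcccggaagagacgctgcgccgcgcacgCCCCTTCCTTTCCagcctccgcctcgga
Rps18: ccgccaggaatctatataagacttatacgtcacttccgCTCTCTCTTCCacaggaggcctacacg
Rpl7a: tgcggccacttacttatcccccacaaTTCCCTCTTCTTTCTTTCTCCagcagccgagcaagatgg
Rpl15: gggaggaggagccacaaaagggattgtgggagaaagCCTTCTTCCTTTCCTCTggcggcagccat
Rpl27a: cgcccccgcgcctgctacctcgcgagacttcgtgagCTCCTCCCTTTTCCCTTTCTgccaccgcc
Rpl35: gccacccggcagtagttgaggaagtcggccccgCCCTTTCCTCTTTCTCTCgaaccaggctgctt
Rpl38: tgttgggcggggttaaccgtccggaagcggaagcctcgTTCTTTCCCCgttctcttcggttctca
Rpl3l: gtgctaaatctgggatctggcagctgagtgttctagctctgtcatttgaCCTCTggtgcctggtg
Rps4x: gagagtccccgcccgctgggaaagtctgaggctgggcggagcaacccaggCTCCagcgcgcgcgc
Rps19: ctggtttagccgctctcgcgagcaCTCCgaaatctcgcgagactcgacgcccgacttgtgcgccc

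Pyrimidine runs at the start were common among the ribosomal protein genes. A RefSeq start within 100 bp of the main cluster was found for 62 of the 86 genes. A run of at least 7 was present in 37 of these 62 (59.7%), against 26.0% of the 9476 tested genes with such a start, 24.4% of the 3704 other genes at or above the lowest decile of the members' levels, and 29.7% of all 32851 promoters in the table. The longest run had a median of 9 bases in the members and 5 in the tested genes. Of the 37 runs, 33 lay inside the gene's main tag cluster. The same held for 1864 of 2464 runs in the tested genes and 688 of 905 in the other genes at or above the members' lowest decile. In the 8 genes shown the run was 10 to 21 bases long, longest in Rpl7a. Runs of at least 7 were found in 12 of 23 small subunit genes, 21 of 33 large subunit genes, 3 of 5 paralogs and the only annotated pseudogene with a RefSeq start. The RefSeq start itself was a C in 20 of 62 members (32.3%) against 14.2% of the tested genes. By their own tags, members of the usual subunits with such a run had a median level of 382 CPM (33 genes) and those without it 251 CPM (23 genes). With the pseudogene entries described below these medians were 534 and 373 CPM. This is a description of levels, and the groups overlap widely. The split also depends on the window, as 56 of 62 members had a run of at least 7 within 50 bases.

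Short motifs were searched on both strands from 250 bases before to 50 bases after the same starts; none of the 4 strings contains another. CCGGAA, the core letters of ETS factor sites, was in 32 of 62 members (51.6%), against 29.6% of the tested genes and 14.9% of all promoters. Each promoter was counted once, and Rpl38 and Rps10 carry these letters within the bases shown. AANATGGC, which resembles the site of YY1, was in 12 (19.4%), against 8.93% and 6.05%. GGGCGG, the core of GC boxes, was in 36 (58.1%), against 68.1% and 35.7%, and TATAAA was in 7 (11.3%), against 8.44% and 13.6%. The 7 genes with TATAAA were Rps2, Rpl39, Rplp0, Rps28, Rpl32l, Rpl36a and Rpl22l1. A match describes the letters only and is not evidence of binding.

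Together the 86 genes took 29651, 28364, 28913 and 30857 CPM in libraries 1 to 4, or 2.94% ± 0.108 (SD, n = 4) of the tags over all entries. The 4 sums lie close together, with library 4 highest and library 2 lowest. The 10 highest genes took 36.3% ± 0.236 (SD, n = 4) of the members' tags. The 31 small subunit genes summed to 14598, 13965, 14338 and 15150 CPM. The 46 large subunit genes summed to 14470, 13848, 14051 and 15102 CPM. Their ratio, large over small, was 0.991, 0.992, 0.980 and 0.997, a mean of 0.990 ± 0.00712 (SD, n = 4). By the genes' own tags, both subunits thus contributed nearly equal numbers in every library. Tags at the pseudogene entries described below are not part of this ratio, and it was not computed with them. In whole skin, fewer cells of a type and less RNA per cell cannot be told apart.

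The level of a single gene varied far more than that of a subunit. Among the 77 usual subunit genes the mean level ran from 23.9 CPM (Rpl23) to 2026 CPM (Rps2), 84.8-fold, with a median of 287 CPM and 46.2 to 813 CPM between the lowest and highest deciles. In the order of mean levels, 65 of the 76 neighbouring pairs overlapped in their ranges over libraries, so most neighbours were not separated by the spread between libraries. The median was 382 CPM in the small subunit and 199 CPM in the large.

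**Figure D1:**
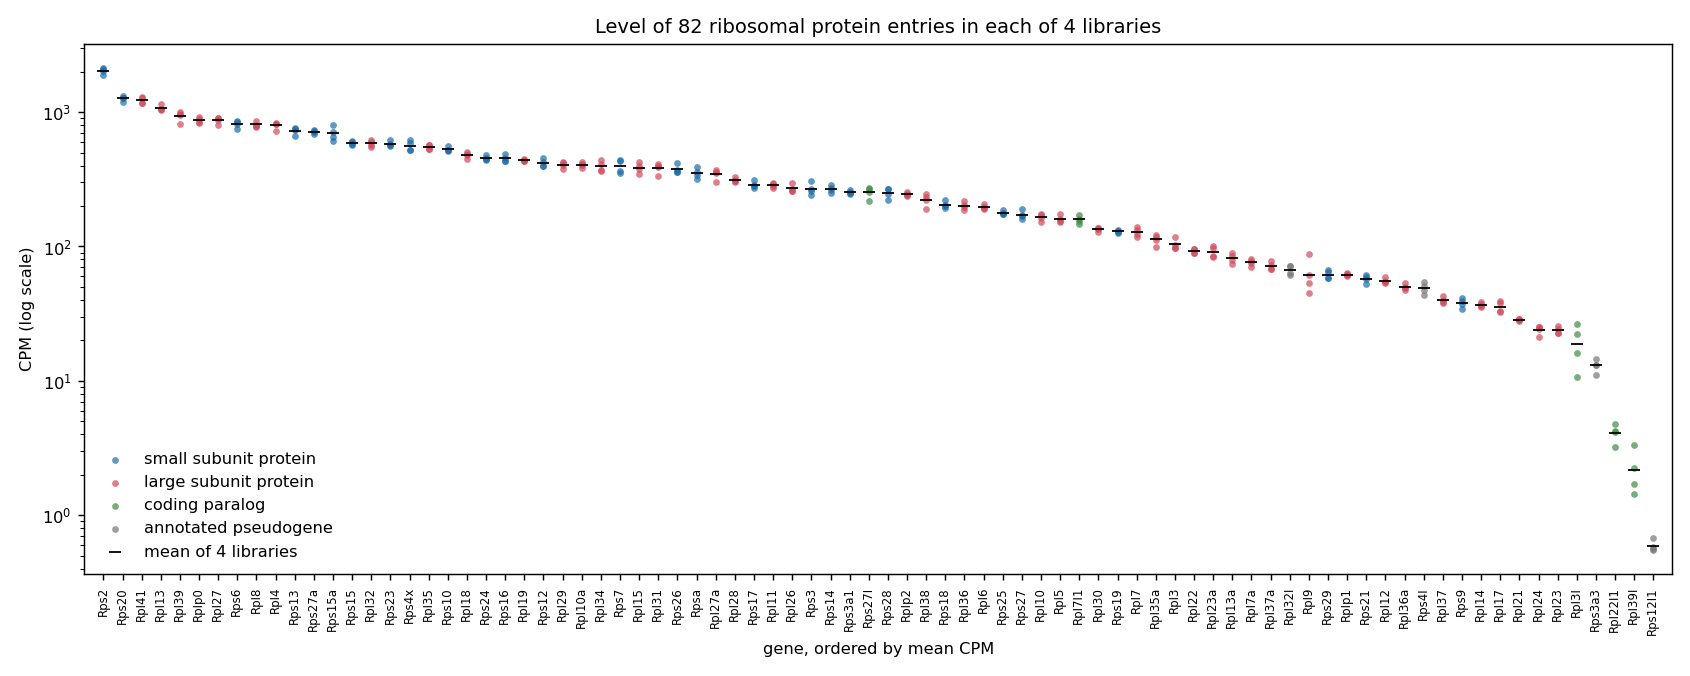
CPM (log scale) of 82 of the 86 ribosomal protein entries in each of 4 libraries, ordered by their mean, which is drawn as a bar and ran from 0.593 CPM in Rps12l1 to 2026 CPM in Rps2. The 4 points of a gene lie close together except in a few low genes and Rpl9.

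Rps2, a protein of the mRNA entry side of the small subunit, was highest at 2125, 1889, 2082 and 2008 CPM. All 4 libraries lay above every library of the next gene, Rps20, a protein of the small subunit head, at 1284, 1276, 1197 and 1308 CPM. Rpl41, the smallest ribosomal protein, followed at 1165, 1160, 1276 and 1306 CPM, overlapping Rps20. Rpl13 (1072 CPM ± 54.7), Rpl39 (936 ± 81.9), Rplp0 (869 ± 38.2), Rpl27 (869 ± 47.0), Rps6 (819 ± 48.6), Rpl8 (808 ± 35.1) and Rpl4 (796 ± 45.3; SD, n = 4 for each) complete the highest 10. Rplp0 anchors the stalk and Rps6 is the substrate of the S6 kinases downstream of mTOR. Rps6 stood at 809, 755, 847 and 864 CPM.

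At the other end, the 5 lowest usual subunit genes were all of the large subunit. Rpl23 stood at 24.5, 25.5, 22.8 and 22.7 CPM, Rpl24 at 25.3, 24.4, 21.3 and 25 CPM, and Rpl21 at 29.1, 27.9, 28.7 and 28.1 CPM. Rpl17 (35.7 CPM ± 3.30) and Rpl14 (36.8 ± 1.32; SD, n = 4) came next. Below them stood paralogs and annotated pseudogenes: Rpl3l at 18.8 CPM ± 6.88, Rps3a3 at 13 ± 1.44, Rpl22l1 at 4.12 ± 0.644, Rpl39l at 2.18 ± 0.846 and Rps12l1 at 0.593 ± 0.0605 (SD, n = 4), the last held by 10 to 12 tags per library and too low for the test of spread. All 86 genes were above the floor of 3 tags in every library.

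Genes known for other roles lay between these ends. Rpl5 and Rpl11, which with the 5S RNA bind the p53 regulator MDM2, stood at 174, 156, 153 and 160 CPM and at 299, 273, 283 and 291 CPM. Rpsa, also described as a laminin receptor, stood at 358, 318, 339 and 388 CPM. Rps19, mutated in some patients with Diamond-Blackfan anaemia, stood at 132, 126, 131 and 129 CPM. Rpl38, linked to the translation of Hox mRNAs, stood at 244, 235, 190 and 221 CPM, and Rpl13a, a part of the GAIT complex that silences inflammatory mRNAs, at 88.8, 74.2, 85.6 and 79.6 CPM. Rps27a, whose protein is made as a fusion with ubiquitin, stood at 733, 720, 682 and 713 CPM, and the values of Rpl5 and Rpl11 did not overlap in any library.

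Many low levels stood beside high levels at entries annotated as pseudogenes of the same gene. Each gene annotated as a pseudogene, other than the 4 among the members, was assigned to the member whose transcripts hold the largest share of its 31-base words, with at least 20% shared. This found 240 pseudogenes for 73 members, which summed to 18199, 17706, 16618 and 18728 CPM, 17813 ± 899 (SD, n = 4). That is 60.5% of the members' own sum. At least 100 CPM was reached by 42 of them. For 28 of the 77 usual subunit genes the pseudogene entries held more tags than the gene, for 48 they held at least 10% of the joint tags, and 5, among them Rpl8, Rplp2, Rpl32 and Rps3a1, had none.

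The largest of these entries stood many times above the gene they resemble. Gm4149, which resembles Rpl37a, stood at 1626, 1541, 1373 and 1565 CPM, against 78.4, 72.4, 68.3 and 67.5 CPM for Rpl37a; its entry is also listed under Mir682. Gm6204, which resembles Rps14, stood at 1415 CPM ± 69.8, against 268 ± 14.8 for Rps14 (SD, n = 4). Gm11478 stood at 1250 CPM and Rpl13a at 82.1, Rps19-ps6 at 1132 and Rps19 at 130 CPM. The gap was wide for Rpl14-ps1 (1004 CPM) beside Rpl14 (36.8), Gm5905 (582) beside Rps9 (38), and Gm9794 (293) beside Rpl23 (23.9). In each of these cases every library of the pseudogene entry lay above every library of the gene.

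Adding the pseudogene entries to the gene they resemble changed the order of the members and narrowed their range. The 77 genes then ran from 114 to 2042 CPM, 17.9-fold in place of 84.8-fold, with a median of 509 CPM and 178 to 1153 CPM between the deciles. Rps14 moved from place 42 to place 2, Rpl37a from 65 to 3 and Rpl13a from 63 to 4 among the members. Which locus gave rise to a tag cannot be read from the table. In 26 members a stretch of 50 bases near the 5′ end of a transcript is identical to one in a transcript of another annotated gene, and in 6 of them (Rpl12, Rpl9, Rps12l1, Rplp2, Rpl32l and Rps3a3) this stretch starts at the first base.

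**Figure D2:**
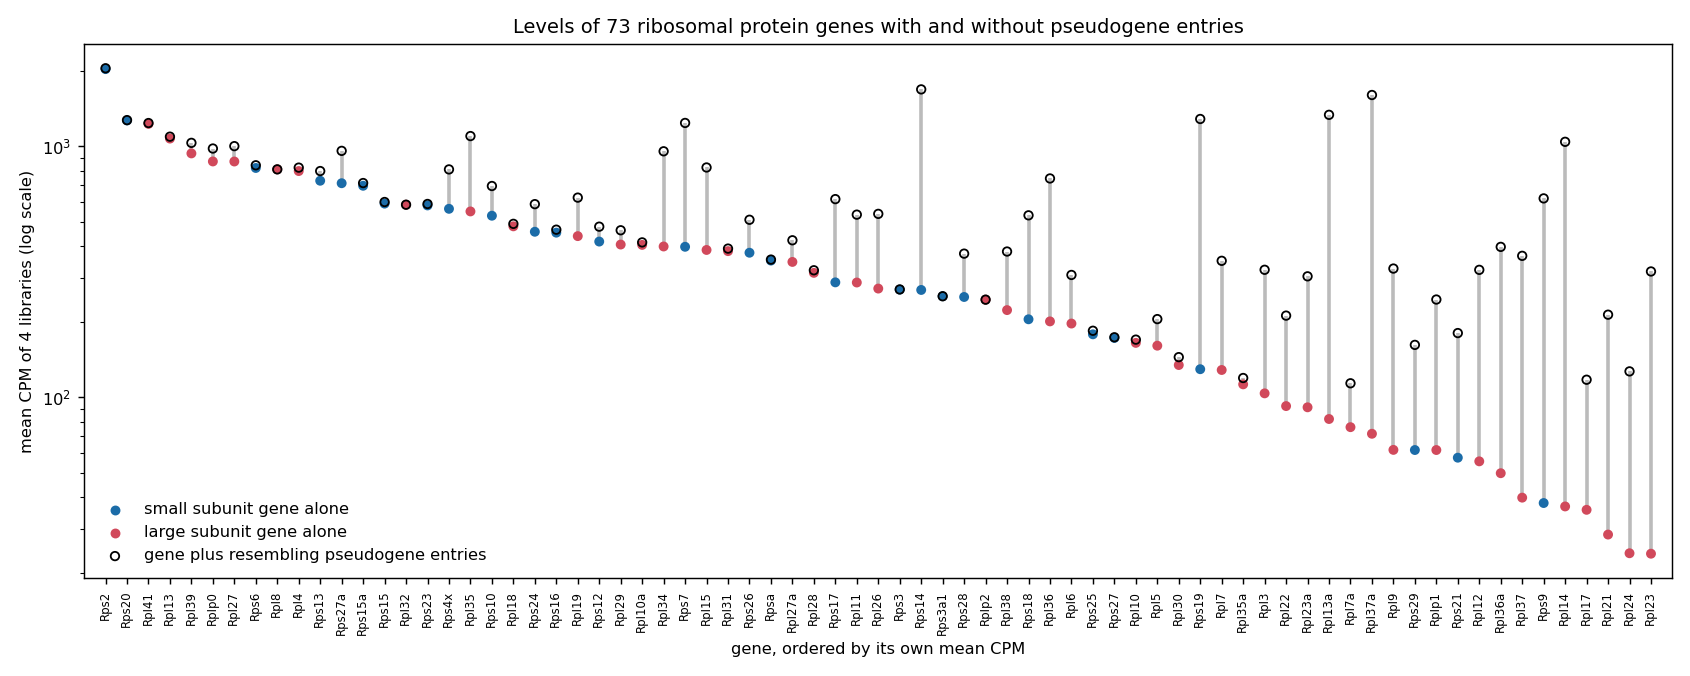
Mean CPM over 4 libraries (log scale) of 73 of the 77 usual subunit genes, alone (filled) and with the entries of pseudogenes that resemble them (open). With these entries the range was 114 to 2042 CPM in place of 23.9 to 2026 CPM, and Rpl37a, Rps14, Rpl13a, Rps19 and Rpl14 moved from the middle or low end to above 1000 CPM.

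The shape of the clusters also differed between the members and these pseudogene entries. The main cluster, the one with the most tags, had a median width of 129 bases in the members (interquartile range 100 to 162), against 124 in all tested genes and 146 in other genes at or above the lowest decile of members. A width of at least 100 bases was found in 64 of 86 members (74.4%) and 64.8% of tested genes. The pseudogene entries of at least 1 CPM had a median width of 15 bases (n = 160), and 60% of them were at most 20 bases wide, against 3.49% of members and 4.72% of tested genes. In 80 of 86 members the main cluster spans an annotated start of the gene, and in 79 it holds at least 90% of the tags. Spanning a start is usual: a nearby RefSeq start lay in the main cluster for 91.9% of 62 members and 89.5% of 9476 tested genes.

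**Figure D3:**
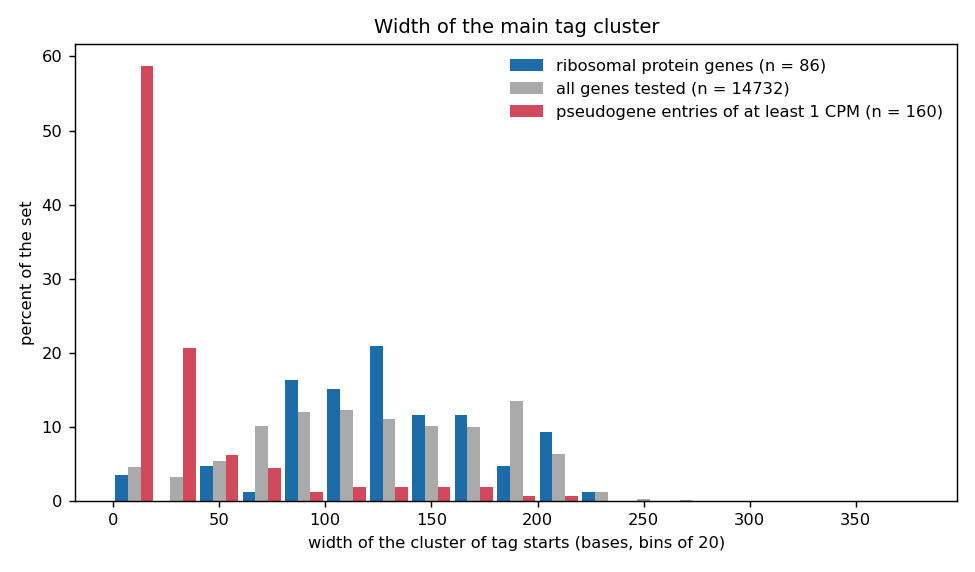
Width of the main tag cluster (bases, bins of 20) as percent of each set, for 86 ribosomal protein genes, 14732 genes tested and 160 pseudogene entries of at least 1 CPM. Most pseudogene entries fall in the narrowest bin, while the members centre on 129 bases.

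The narrowest main clusters among members of at least 10 CPM were those of Rpl8 (7 bases), Rps3a3 (13), Rpl32l (40), Rpl3l (40) and Rpl12 (51). Rps3a3 and Rpl32l are annotated pseudogenes, whereas Rpl8 is a usual large subunit gene that stands at 808 CPM. Its narrow cluster, chr15:76904298-76904305 on the plus strand, held 88.2% of its tags, and a second cluster upstream, chr15:76904058-76904109, held 6.55%. The widest were Rpl41 (235 bases), Rpl30 (213), Rpsa (209), Rps2 (204), and Rpl36 and Rpl38 (203 each). Width was set over all libraries together in the deposited table, so it has no spread between libraries.

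A second cluster held at least 10% of the tags in 3 members. In Rpl3l it lay 508 bases downstream of the main cluster, at chr17:24728314-24728376, and held 44.0% of the tags. In Rps9 it lay 680 bases downstream and held 16.1%, 13%, 25.9% and 20.9% of the gene's tags in libraries 1 to 4, highest in library 3, while the main cluster stayed between 21.5 and 24.3 CPM. In Rps19 it lay 207 bases downstream and held 12.1% to 14.8%. The 86 members had 340 entries in all, 1 to 12 per gene with a median of 3.

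Some members share their cluster with a small RNA. In 20 members at least 90% of the tags lie in entries that are also listed under another gene, and in each of the 20 the other gene is a small RNA or an unnamed gene model at the same place. Among the 10 highest of these members were Rps2 (with Snora64), Rps20 (Gm24016), Rpl13 (Snord68), Rps13 (Snord14a), Rpl32 (Snora7a), Rps10 (Gm49804), Rps16 (AF357399), Rps12 (Gm23130) and Rpsa (Gm24044). Snord and Snora genes lie in introns of their hosts, and the tags were counted here for the ribosomal protein gene. Without these entries the members' sum was 2.04% of tags in place of 2.94%.

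The levels of paired genes, not all of them paralogs, were compared within each library, which cancels any scaling. With 4 libraries the exact two-sided sign-flip permutation test cannot give a p below 0.125 (2 of 16 sign patterns), so no pair can pass 0.05. Both genes were found for 12 of 13 pairs, and all 12 kept 1 direction in 4 of 4 libraries by their own tags. Rpl39l, described as a testis-enriched paralog, stood at 1.71, 1.43, 3.35 and 2.23 CPM, and its log2 ratio to Rpl39 was -8.80 ± 0.45 (SD, n = 4, exact permutation p = 0.125). Rpl22l1 stood at 4.24, 3.24, 4.20 and 4.79 CPM beside Rpl22 at 95.9, 89.4, 88.8 and 95.4 CPM, a log2 ratio of -4.49 ± 0.20 (exact permutation p = 0.125). Rps4l, an annotated pseudogene, stood at 49.1 CPM ± 4.57 (SD, n = 4) beside Rps4x at 563 ± 51.0, a log2 ratio of -3.52 ± 0.12 (exact permutation p = 0.125). By their own tags all 3 lay far below their partner in every library.

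A pair of paralogs lay above their partner by the gene's own tags, and 1 of them below it once pseudogene entries were added. Rps27l, a target of p53, stood at 252, 267, 219 and 271 CPM, and Rps27 at 160, 171, 170 and 190 CPM, a log2 ratio of 0.55 ± 0.14 (SD, n = 4, exact permutation p = 0.125, 4 of 4 libraries). Rpl7l1 stood at 172, 148, 155 and 160 CPM and Rpl7 at 124, 118, 134 and 139 CPM, a log2 ratio of 0.31 ± 0.12 (exact permutation p = 0.125, 4 of 4 libraries). With pseudogene entries Rpl7 stood at a mean of 350 CPM, while Rpl7l1 has no such entry, and the log2 ratio of Rpl7l1 over Rpl7 became -1.14 ± 0.08 (SD, n = 4, exact permutation p = 0.125), turned in all 4 libraries. The 1 pseudogene assigned to Rps27, Gm17241, held 1.07 CPM and left its ratio at 0.54 ± 0.13. Rps27rt, the protein-coding copy of Rps27, stood at 111 CPM ± 10.7 (SD, n = 4) and is not part of either value.

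The stalk proteins also depended on these entries. Rplp1 stood at 61.7, 63.5, 59.9 and 61.9 CPM and Rplp2 at 244, 237, 243 and 255 CPM, a log2 ratio of Rplp2 over Rplp1 of 1.99 ± 0.06 (SD, n = 4, exact permutation p = 0.125). With pseudogene entries Rplp1 reached a mean of 245 CPM, the same as Rplp2, and the log2 ratio was 0.0013 ± 0.13, above 0 in 2 of 4 libraries (SD, n = 4, exact permutation p = 1). Rplp0 over Rplp1 was 3.81 ± 0.07 on the log2 scale by own tags and 2.0 ± 0.10 with pseudogene entries. Nearly all of the level added to Rplp1 came from Gm17511, at a mean of 182 CPM, while Gm11942 added 1.37 CPM. Transcripts of Rplp1 hold 24.7% of the 31-base words of Gm17511, close to the lowest share accepted. Both ratios to Rplp1 with pseudogene entries therefore depend on this assignment, and they were not computed without it. The ratio of Rpl22l1 to Rpl22 moved most, from -4.49 to -0.47 ± 0.16, because entries of 2 pseudogenes that resemble Rpl22l1 add 149 CPM to its 4.12 CPM.

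The other member pairs kept their direction with pseudogene entries. Rpl5 over Rpl11 was -0.84 ± 0.05 (-1.38 with pseudogene entries), Rpl36a over Rpl36 -2.01 ± 0.09 (-0.90) and Rps27a over Rps27 2.05 ± 0.12 (2.47) on the log2 scale (SD, n = 4; exact permutation p = 0.125 for each). Rpl36 stood at 201 CPM ± 12.4 and Rpl36a at 49.9 ± 2.72, while Rpl36al, the intronless copy outside the rule, stood at 323 CPM. Between the genes of ribosomal proteins made as fusions, the log2 ratio of Fau over Rps27a was -3.24 ± 0.08 (SD, n = 4, exact permutation p = 0.125), for which pseudogene entries were not examined.

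The spread of each gene between the 4 libraries was then tested against genes of similar level. The test was limma's one-sided F test on log2(CPM + 1) after TMM scaling, with Benjamini-Hochberg adjustment over 14732 genes of at least 1 CPM. Of the 86 members, 85 were tested and 0 passed an adjusted p of 0.05, where 0.231% of all tested genes (34) passed. edgeR on the recovered tags also called 0 members and 0.224% of all genes (33). At an unadjusted p under 0.05 there were 2 members, Rpl3l and Rpl9, and 6.29% of all genes. The same 2 were the only members that DESeq2 marked as dispersion outliers, as it did 3.48% of all genes.

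Levels of ribosomal protein genes repeated closely between libraries. After TMM scaling the median SD over libraries was 0.090 on the log2 scale, against 0.125 for all tested genes. It was 0.093 for other genes at or above the members' lowest decile and 0.121 for other genes at or above the members' median. Below the value of the trend at their level lay 51 of 85 members (60%) and 52.4% of all tested genes. The coefficient of variation was taken on unscaled CPM, so it also holds differences in scaling between libraries. It had a median of 6.10% in the members, where counting error alone gives 1.48%. It was under 10% in 77 of the 85 tested members (90.6%). That share was 48.6% in all tested genes and 70.9% in other genes at or above the members' lowest decile. Among the smallest log2 ranges after TMM scaling were those of Rps6 (0.03), Rpl10 (0.05), Rpl14 (0.07) and Rpl7 (0.08). The largest were those of Rpl3l (1.07), Rpl9 (0.87), Rpl39l (0.74), Rpl38 (0.46) and Rps27l (0.44).

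Rpl3l, the paralog of Rpl3 that is known from skeletal and cardiac muscle, varied most. It stood at 16.1, 10.7, 22.3 and 26.3 CPM in libraries 1 to 4, lowest in library 2 and highest in library 4 (limma unadjusted p = 0.0189, adjusted p = 0.589; edgeR adjusted p = 0.606). The 10 skeletal muscle genes of the marker list summed to 3388, 2487, 4154 and 6241 CPM and put the 4 libraries in the same order. After TMM scaling all 10 of these muscle genes were highest in library 4, and 9 of 10 lowest in library 2. The 3 T cell genes found gave the same order of libraries, summing to 6.05, 5.47, 11.1 and 11.5 CPM. The other marker lists gave other orders, so this order is shared by muscle and is not particular to it. Both Rpl3l clusters followed this order, the main one at 8.42, 5.74, 12.3 and 14.3 CPM and the second at 7.21, 4.52, 9.64 and 11.8 CPM. Rpl3 itself stood at 117, 97.4, 98.0 and 103 CPM, and the log2 ratio of Rpl3l to Rpl3 was -2.54 ± 0.58 (SD, n = 4, exact permutation p = 0.125), or -4.17 ± 0.62 with the pseudogene entries of Rpl3. The part of muscle content in the values of Rpl3l was not tested.

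Rpl9 was highest in the library in which Rpl9-ps6 was lowest, a copy that is named as a pseudogene but annotated as protein coding and so is not among the pseudogene entries summed above. Rpl9 stood at 45.3, 53.2, 87.5 and 61.3 CPM, highest in library 3 and lowest in library 1 (limma unadjusted p = 0.0191, adjusted p = 0.591; edgeR adjusted p = 0.577). Rpl9-ps6 stood at 118, 109, 79.6 and 122 CPM, lowest in library 3. The Rpl9 pseudogenes Gm4600 (232, 223, 194 and 235 CPM) and Rpl9-ps7 (26.4, 26.5, 23 and 27.3 CPM) were lowest there too. So was the sum of all pseudogene entries resembling members, at 18199, 17706, 16618 and 18728 CPM. A low level in library 3 is thus not particular to the copies of Rpl9. Rpl9 and Rpl9-ps6, paired after their values were seen, summed to 163, 162, 167 and 184 CPM, with a coefficient of variation of 5.88%, against 29.7% for Rpl9 and 18% for Rpl9-ps6. The first 50 bases of an Rpl9 transcript are identical to those of the Rpl9-ps6 transcript, and a tag from that stretch cannot be assigned to a locus by its sequence. The rule by which such tags were placed at a locus is not stated in the labels or processing notes used here.

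**Figure D4:**
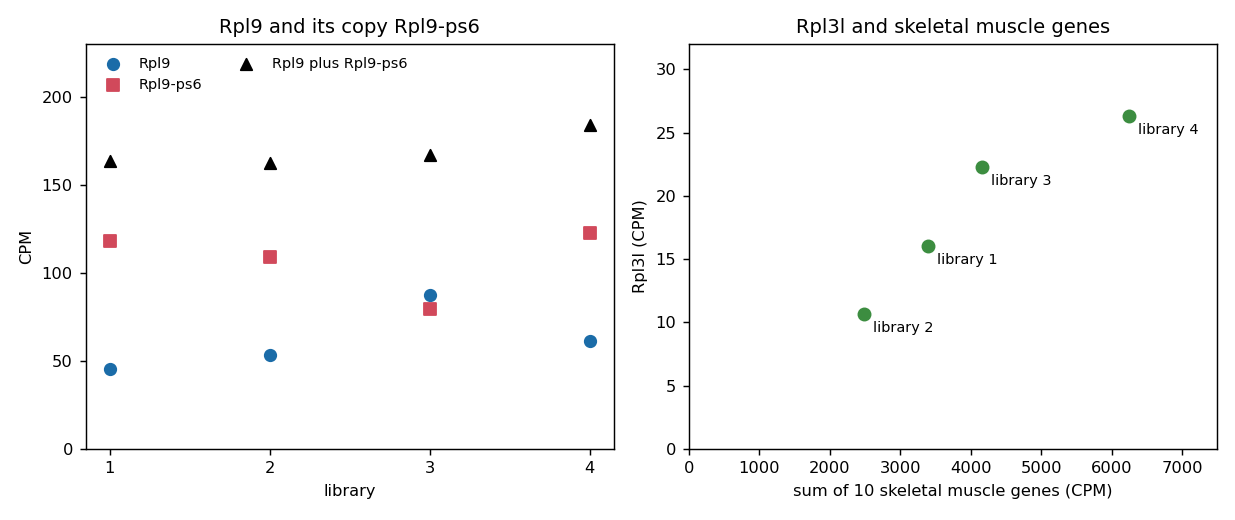
Left, CPM of Rpl9, Rpl9-ps6 and their sum in each library; Rpl9 is highest and Rpl9-ps6 lowest in library 3, while the sum lies between 162 and 184 CPM. Right, CPM of Rpl3l against the sum of 10 skeletal muscle genes, 1 point per library. Both put the libraries in the order 2, 1, 3, 4, as did the sum of the T cell genes found.

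Although no member passed the test of spread, the members shared a small displacement between libraries. After TMM scaling the median deviation of the 85 members from their own means was 0.042, 0.054, -0.082 and 0.004 on the log2 scale in libraries 1 to 4. That of all tested genes was -0.002 to 0.007. Other genes at or above the members' lowest decile had medians of 0.015, 0.027, -0.015 and -0.027. The members' range over libraries was 0.135, and 0.0457 without library 3. Library 3 was the lowest of the 4 for 55 of 85 members (64.7%), against 28.6% of all tested genes and 31.7% of other genes at or above the members' lowest decile, and library 2 the highest for 42 (49.4%), against 24.0% and 28.6%. Libraries 1 and 2 both lay above libraries 3 and 4 in 44 members (51.8%), against 27.9% of all genes and 38% of the genes of similar level, and both below in 9 (10.6%), against 26.8% and 19.7%. Libraries 1 and 3 both lay below libraries 2 and 4 in 19 members and above in 4, against 12.1% and 10.4% of all genes.

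These counts depended on the scaling, while the displacement relative to all genes moved little. Without TMM the median of all tested genes moved to between -0.086 and 0.058 by library; library 3 was then lowest for 31 members (36.5%, against 17% of all genes), library 2 for 43 (50.6%, the same as the 50.6% of all genes), and libraries 1 and 2 lay above the others in 11 (12.9%, against 11.5%). The members' median minus that of all genes remained 0.042, 0.040, -0.078 and 0.008, close to the scaled 0.043, 0.047, -0.081 and 0.004. After TMM scaling with pseudogene entries added, library 3 was lowest for 71 of 85 members (83.5%, against 28.6% of all genes). The range was then 0.173. The added entries were themselves lowest in library 3, with an unscaled sum of 16618 CPM against 17706 to 18728 CPM in the others. The TMM-scaled displacement was alike in both subunits, with library 3 at -0.081 in the small and -0.083 in the large. Library 3 was lowest for 20 of 31 and 30 of 46 genes. After TMM scaling all 3 stalk genes were highest in library 2 and lowest in library 3. In unscaled CPM the 3 summed to 1190, 1145, 1136 and 1233, highest in library 4.

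**Figure D5:**
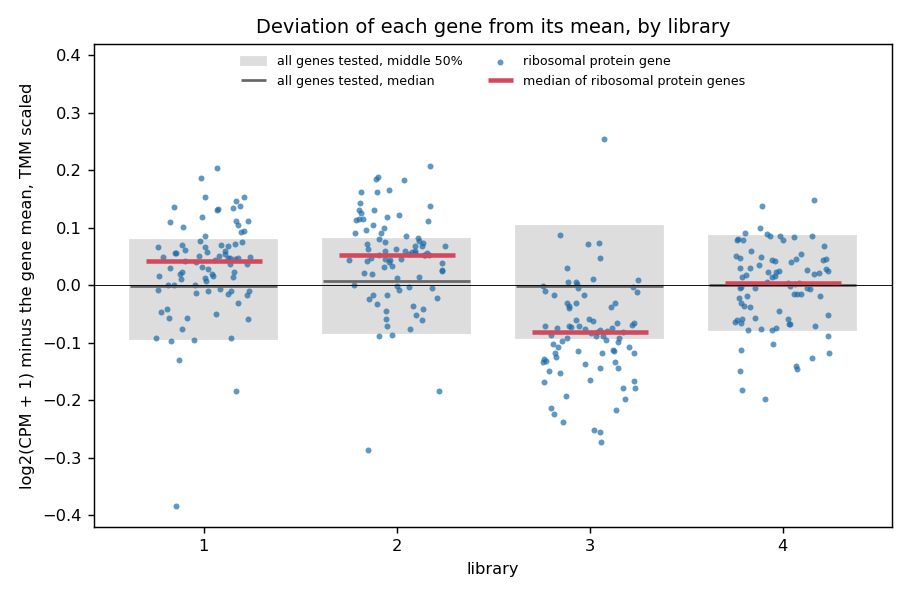
Deviation of each of 85 ribosomal protein genes from its own mean, log2(CPM + 1) after TMM scaling, in each library, with the median of the members and the median and middle 50% of 14732 genes tested; 4 points of Rpl39l, Rpl3l and Rpl9 beyond 0.4 are not drawn. The members' median lies at -0.082 in library 3 and at 0.054 in library 2.

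The other genes of translation were taken from lists that hold related functions, and 0 genes of any of these lists passed the test of spread by limma or edgeR; at an unadjusted p under 0.05 there were 1 initiation gene and 1 gene of the mTOR list by limma. Beside the counts that follow, library 3 was lowest for 28.6% of all tested genes and libraries 1 and 2 lay above 3 and 4 in 27.9% (31.7% and 38% of genes at the members' levels). The 81 mitochondrial ribosomal protein genes, led by Mrpl33, Mrpl52 and Mrps14, had medians of 0.008, 0.053, -0.063 and 0.001, with 44 of 81 lowest in library 3. The 23 translation initiation genes, led by Eif5a, Eif4g2 and Eif4a1, had medians of 0.119, 0.111, -0.103 and -0.115, and libraries 1 and 2 lay above 3 and 4 in 21 of them. The 40 ribosome biogenesis genes, led by Ncl, Nhp2 and Mybbp1a, had medians of 0.088, 0.10, -0.087 and -0.112, with 32 of 40 in that arrangement. The 25 other TOP and elongation genes, led by Pabpc1 and Tpt1, had medians of 0.057, 0.020, -0.004 and -0.039. The 16 genes of the mTOR pathway and of TOP mRNA control, led by Rheb, Max and Eif4ebp2, had medians of 0.005, 0.083, -0.025 and -0.040. After TMM scaling the medians of the cytosolic and the mitochondrial ribosomal protein genes were highest in library 2 and lowest in library 3, whereas those of the initiation and biogenesis genes were lowest in library 4. Without TMM the median of the cytosolic genes was lowest in library 2 (-0.046) and highest in library 4 (0.066).

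Several cell type markers moved between the same libraries. The hair shaft genes were high in libraries 1 and 2 (6 of 6 above both others), the fibroblast genes were low there (6 of 6, summed to 3630, 3224, 6120 and 5426 CPM), and so were 4 of 4 endothelial genes (38, 38.3, 55.0 and 55.8 CPM). The keratinocyte genes summed to 10947, 9790, 13719 and 13084 CPM. The proliferation genes summed to 315, 268, 281 and 313 unscaled CPM, lowest in library 2. After TMM scaling library 3 was lowest for 4 of 5 proliferation genes, against 28.6% of all tested genes. The T cell genes found, 3 of 6, summed to 6.05, 5.47, 11.1 and 11.5 CPM (the other 3 were not analysed here), and 6 myeloid and mast cell genes to 99.6, 90, 116 and 101 CPM. Their part in the displacement of the ribosomal protein genes was not tested.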

How the data were processed

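CAGE tags were counted in 4 libraries of 1 group. Per the labels' protocols, libraries were made from total RNA. BWA, HISAT2 and the mm9 build are named in the submitters' processing notes; positions match GENCODE M21 on GRCm38 and are given as deposited, uncertain by 1 base at the start. How tags were joined into clusters is not stated in those notes. The authors' values are CPM for 69391 entries (67319 distinct clusters). Values were whole multiples of 1 tag in 100% of cases (tolerance 0.05 tags), so tags were recovered; the design named edgeR for counts, and because the deposited unit is CPM limma was the main test and edgeR an alternative. Tags were summed per gene. Of 17849 named genes, 17037 were kept; 33 held no tag and 779 had nearly all their tags in entries of another gene. TMM factors were 0.989, 0.933, 1.04 and 1.04.

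The spread test used log2(CPM + 1), genes of at least 1 CPM, and limma 3.58.1 with a robust trended prior (3.47 degrees of freedom, non-outlier value); edgeR 4.0.16 and DESeq2 1.42.0 in R 4.3.3 were run on recovered tags. Pair ratios added 0.5 tags. Promoters came from RefSeq (GRCm38.p6). Counting error with at least 3 tags as the floor (0.159 to 0.170 CPM) is the only error such floors cover. Members, lists and pairs were chosen with earlier results of these data known. The genes named are: the 10 highest and lowest, the pairs, the 5 largest and smallest log2 ranges, the 5 widest and narrowest clusters (at least 10 CPM), second clusters of at least 10%, the 10 highest shared entries, and known roles. Rpl10l was not analysed here. A few genes, 4 members among them, enter the counts and sums and are not reported by name here. Pseudogenes were named after their values were seen.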

Additional observations from a re-analysis of the deposited data

Results flagged for a closer look

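In 2 of 97 sets of 4 values examined, 1 library stood apart from the other 3 by more than a gap test allows; chance alone gives about 1 in 20. Rpl13, a large subunit protein, stood at 1047, 1041, 1046 and 1154 CPM, with library 4 high and the gap 0.952 of the range. Rpl4, a large subunit protein that lines the exit tunnel, stood at 823, 812, 728 and 820 CPM, with library 3 low (0.885). These are unscaled CPM, and neither gene passed the test of spread.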

How the results depend on the processing

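No paired analysis was possible because all libraries belong to 1 group. Members past the test of spread stayed at 0 under every alternative except DESeq2's dispersion outliers, which gave 2. Calls among all genes moved from 34 to 61 with no filter on low values, 16 at a mean of at least 5 CPM, 56 with 0.5 CPM added, 104 without TMM, 62 with only the most used entry, 56 with pseudogene entries and 513 dispersion outliers, and leaving out 1 library gave 10 (library 4) to 112 (library 3), with 57 and 52 for libraries 1 and 2. The range of the members' median deviation was 0.0457 to 0.132 with 1 library left out, lowest without library 3. The summed level was 2.04% over entries listed under no other gene, 3.14% of distinct clusters and 4.73% with pseudogene entries. Pyrimidine runs of at least 7 within 50 bases were found in 56 of 62 members (90.3%), against 43.5% of tested genes and 50.3% of all promoters. The log2 ratio of Rpl3l to Rpl3 turned to 4.50 over entries listed under no other gene, where the main entry of Rpl3, shared with Snord43, is left out. With pseudogene entries the ratio of Rpl7l1 over Rpl7 turned to -1.14. Without TMM, 31 members were lowest in library 3 and 11 had libraries 1 and 2 above 3 and 4. The alternatives with pseudogene entries, and those on counts by library, were chosen after seeing the data. Beyond what each alternative leaves out or adds, the cause of these changes was not tested. Depth limits the lowest members most: Rpl39l had 27 to 59 tags per library, whereas Rps2 had 35550 to 38638.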
